A study of Mus musculus with 4 samples.

Results

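The regions described here are 3812 strong H3K27ac peaks that carried no PHF6 peak, out of 32388 H3K27ac peaks in all. They were chosen by 3 measured values: a summit height of 35 or more in the H3K27ac list, no overlap with a PHF6 peak, and no overlap with an H3K27me3 peak, on chromosomes 1 to 19. Summit height is the pileup of sequenced fragments at the tallest point of a peak, as the authors deposited it, and overlap means at least 1 shared bp. Of 15970 autosomal H3K27ac peaks that reached the height, 685 overlapped H3K27me3 and were set aside, and 11473 of the 15285 others held PHF6. The regions are named PHF6-free peaks below, and the 11473 are named PHF6-holding peaks. PHF6-free says only that the deposited list had no PHF6 peak there.

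All libraries came from 1 kind of cell, a C57BL/6J mouse pre-B cell leukemia grown in culture, which overexpressed the fusion kinase BCR-ABL1 and was null for p19. Chromatin immunoprecipitation with sequencing used antibodies to PHF6 (A301-451A, Bethyl), H3K27ac (ab4729, abcam) and H3K27me3 (ab6002, abcam), and an input DNA library had no antibody. Each antibody had 1 library, so no value here has a replicate error and no test between groups was possible. The labels do not say whether the cells were 1 clone.

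H3K27ac is acetylation of lysine 27 on histone H3, laid down by the acetyltransferases CBP and p300 at active promoters and enhancers. Trimethylation of the same lysine is the work of Polycomb repressive complex 2, and one lysine cannot carry both marks. PHF6 is a chromatin-associated protein with atypical PHD zinc fingers that is mutated in T-cell leukemia and binds the nucleosome remodelling complex NuRD. The regions thus show acetylated chromatin at which PHF6 was not detected in these cells. They are given by position and cytogenetic band in mm9. Genes, start sites and sequence at the peaks were not analysed here, and the pre-B identity of the cells was not checked against marker genes.

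The height of 35 is the median of all autosomal H3K27ac peaks, and most PHF6-free peaks lay in the lower part of the range above it. Their median height was 59 (quartiles 44 and 100, range 35 to 388), against 241 (104 and 315, range 35 to 389) for PHF6-holding peaks. Heights of 35 to 49 made up 36.3% of PHF6-free peaks, heights of 50 to 99 another 38.5%, heights from 100 to below 200 a further 17.1%, and heights of 200 or more the last 8.16%. Among strong peaks, those without PHF6 were 55.9% (95% interval 53.9 to 57.8) at heights of 35 to 49 and 46.9% (45.2 to 48.7) at 50 to 99. They were 25.2% (23.6 to 26.9) from 100 to below 200 and 4.38% (3.91 to 4.88) at 200 or more. Because the choice of regions used height and PHF6, these shares are a description. Intervals are exact Clopper-Pearson intervals, cover counting error only, and treat neighbouring peaks as independent.

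At a height of 35, just inside the threshold, 126 of 253 peaks without H3K27me3 lacked PHF6 (49.8%), and their median width was 1637 bp. At a height of 34, just outside it, 139 of 256 such peaks lacked PHF6 (54.3%), with a median width of 1645 bp. The share showed no step at the threshold, since it was 56.1% at a height of 33, 56.9% at 36 and 55.9% at 37.

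**Figure D1:**
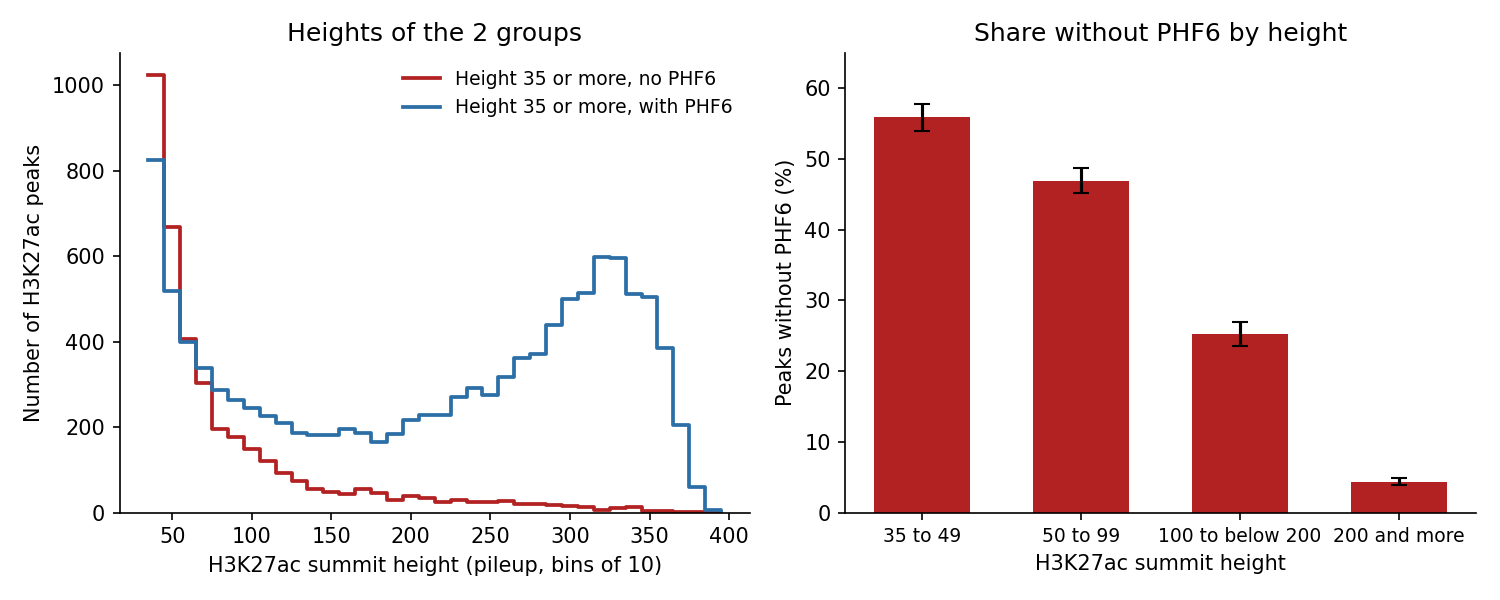
The left panel plots the number of H3K27ac peaks (y) against summit height in bins of 10 (x) for PHF6-free peaks (red) and PHF6-holding peaks (blue), both without H3K27me3. The right panel plots the share of these peaks without PHF6 in 4 height ranges with 95% exact intervals, and it falls at every step, to 4.38% at heights of 200 or more.

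PHF6-free peaks covered 8.33 Mb and had a median width of 1890.5 bp (quartiles 1409.8 and 2586), against 2117 bp (1685 and 2812) for PHF6-holding peaks. The ratio of medians was 0.893, but height differed between the groups and the direction depended on it. At heights of 35 to 49, PHF6-free peaks were the wider ones, with a median of 1712 bp (95% interval of the median 1672 to 1770) against 1471.5 bp (1419 to 1523). At heights of 50 to 99 the medians were 2045 bp (1961 to 2096) and 1871.5 bp (1800 to 1963), with intervals that touched. From 100 to below 200 they were 2063.5 bp (1934 to 2153) and 2077 bp (2038 to 2118), with intervals that overlapped. At 200 or more the order was the other way, 1860 bp (1772 to 1919) without PHF6 and 2234 bp (2213 to 2256) with it. PHF6-free peaks were thus the broader acetylated segments at heights of 35 to 49 and the narrower ones at 200 or more. A wider peak has more room to overlap a PHF6 peak, so the rule itself bears on width. The part of this in the widths was not tested.

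The authors' score, which grows with the evidence for a peak, showed a related split. Its most frequent value was 3100, near its maximum, and scores of 3000 or more are counted here as at the ceiling. Of PHF6-free peaks, 128 of 650 PHF6-free peaks (19.7%, 16.7 to 23.0) with heights from 100 to below 200 stood at the ceiling, against 42.8% (40.6 to 45.1) of PHF6-holding peaks. At heights of 200 or more the shares were 72.3% (67.0 to 77.2) and 97.6% (97.2 to 98.0). At 35 to 49 the median scores were close, 382.6 without PHF6 and 375.4 with it. Heights themselves were also lower within these ranges, with medians of 130 and 147 in the first and 253 and 304 in the second. The part of this remaining height gap in the differences of score and width was not tested.

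**Figure D2:**
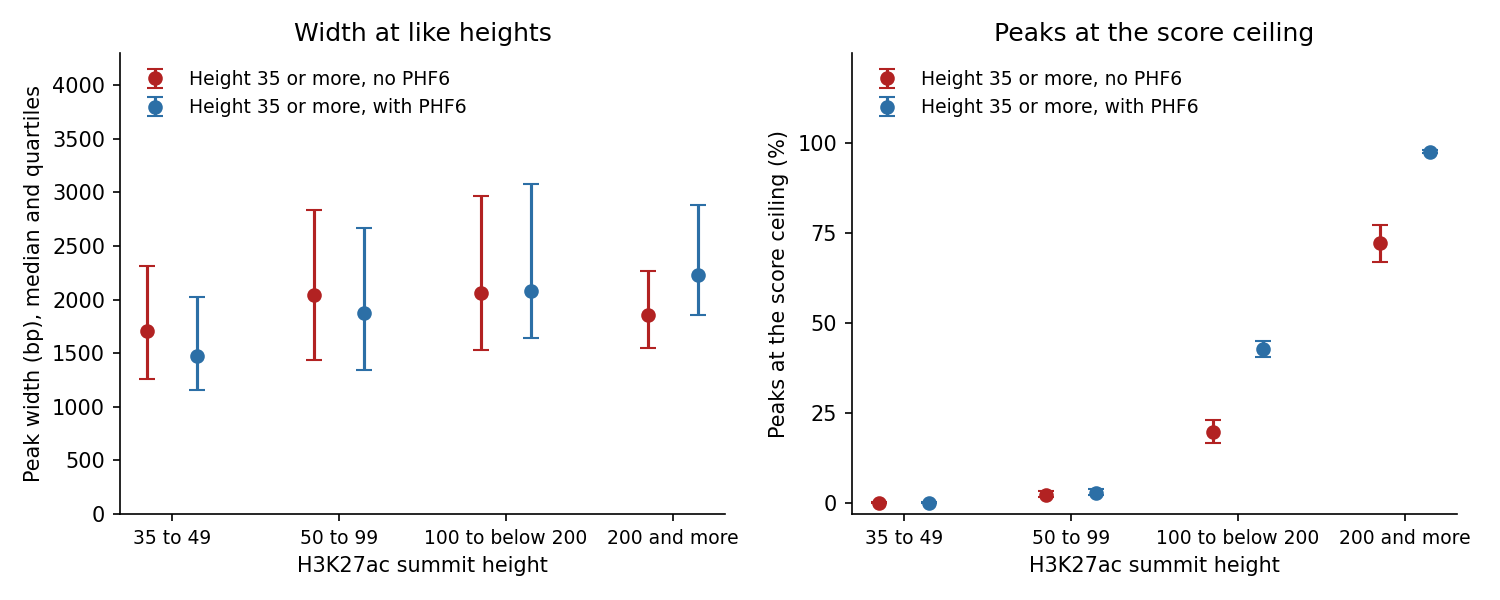
Peak width in bp (left, medians with quartiles) and the share of peaks at the score ceiling (right, 95% exact intervals) are plotted for 4 ranges of summit height, with PHF6-free peaks in red and PHF6-holding peaks in blue. PHF6-free peaks were wider at heights of 35 to 49, narrower at 200 or more, and less often at the ceiling from a height of 100 upward.

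PHF6-free peaks lay in parts of the genome with fewer PHF6 peaks, although PHF6 was rarely far away. The distance from the H3K27ac summit to the nearest PHF6 peak had a median of 9.73 kb (quartiles 4.08 and 24.6). For PHF6-holding peaks the nearest PHF6 peak outside the H3K27ac peak was at 6.20 kb (2.80 and 17.5). A PHF6 peak lay within 10 kb of 1942 PHF6-free peaks (50.9%, 49.3 to 52.5), against 62.9% (62.0 to 63.8) of PHF6-holding peaks and 50.9% (49.5 to 52.3) of the 4871 PHF6-free peaks under height 35, named weak PHF6-free peaks below. Within 50 kb the shares were 89.2%, 93.4% and 88.0%. Nearer in, the weak PHF6-free peaks had PHF6 more often than the strong ones. A PHF6 peak lay within 2 kb of 9.50% (8.58 to 10.5) of strong PHF6-free peaks and 15.4% (14.4 to 16.5) of weak ones, and within 5 kb of 30.4% (28.9 to 31.8) and 34.3% (32.9 to 35.6). Strong PHF6-free peaks were wider than weak ones, with median widths of 1890.5 and 1128 bp. By choice no PHF6 peak lies inside either, so a larger zone around the strong summits is barred to PHF6. The part of this in the gap was not tested.

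At like heights the gap was wider, except among the tallest peaks. At heights of 35 to 49 the median distance was 9.85 kb for PHF6-free peaks and 3.05 kb for PHF6-holding peaks. At 50 to 99 it was 9.37 and 3.59 kb, and from 100 to below 200 it was 9.35 and 4.52 kb. At 200 or more it was 11.9 and 8.81 kb. The distance of PHF6-free peaks was therefore nearly the same over the lower 3 ranges, while that of PHF6-holding peaks increased with height. These distances come from the PHF6 list that chose the regions, and are a description.

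The surroundings of PHF6-free peaks, strong and weak, also held fewer acetylated peaks than those of PHF6-holding peaks. Within 50 kb to each side, PHF6-free peaks had a mean of 5.96 PHF6 peaks and 4.09 other H3K27ac peaks. PHF6-holding peaks had 9.69 further PHF6 peaks and 5.0 other H3K27ac peaks, and weak PHF6-free peaks had 5.56 and 3.89. At heights of 35 to 49 the means were 5.86 PHF6 and 4.13 H3K27ac peaks around PHF6-free peaks, and 12.9 and 6.74 around PHF6-holding peaks. At 200 or more they were 6.01 and 3.35, against 8.04 and 4.17. These windows held no PHF6 peak around 412 PHF6-free peaks (10.8%, 9.84 to 11.8), and no further one around 6.59% (6.14 to 7.06) of PHF6-holding peaks. The PHF6 peak nearest to a PHF6-free peak had a median height of 23, the same value as for PHF6-holding peaks. In 48.9% (47.3 to 50.5) of cases it overlapped another H3K27ac peak. This share was 47.7% (46.3 to 49.1) for weak PHF6-free peaks and 42.5% (41.6 to 43.4) for PHF6-holding peaks. For all autosomal H3K27ac peaks it was 41.9% (41.4 to 42.5).

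Below a height of 200, the nearest H3K27ac neighbour of a PHF6-free peak held PHF6 less often than that of a PHF6-holding peak. The nearest other H3K27ac peak held PHF6 for 1962 of 3812 (51.5%, 49.9 to 53.1), against 71.3% (70.5 to 72.2) for PHF6-holding peaks, 49.6% (48.2 to 51.0) for weak PHF6-free peaks and 69.8% (69.2 to 70.3) for all 31732 autosomal H3K27ac peaks. At heights of 35 to 49 the shares were 49.2% (46.6 to 51.9) and 77.5% (74.9 to 79.9), and at 50 to 99 they were 46.8% (44.2 to 49.4) and 75.1% (73.0 to 77.2). From 100 to below 200 the shares were 56.9% (53.0 to 60.8) and 72.1% (70.0 to 74.1). At 200 or more PHF6-free peaks had neighbours much like those of PHF6-holding peaks, with shares of 72.0% (66.7 to 76.9) and 69.2% (68.1 to 70.3). The neighbour was itself a PHF6-free strong peak for 790 PHF6-free peaks (20.7%, 19.4 to 22.0), for 12.6% of PHF6-holding peaks and for 19.7% (18.6 to 20.8) of weak PHF6-free peaks. In both measures the weak PHF6-free peaks were close to the strong ones.

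**Figure D3:**
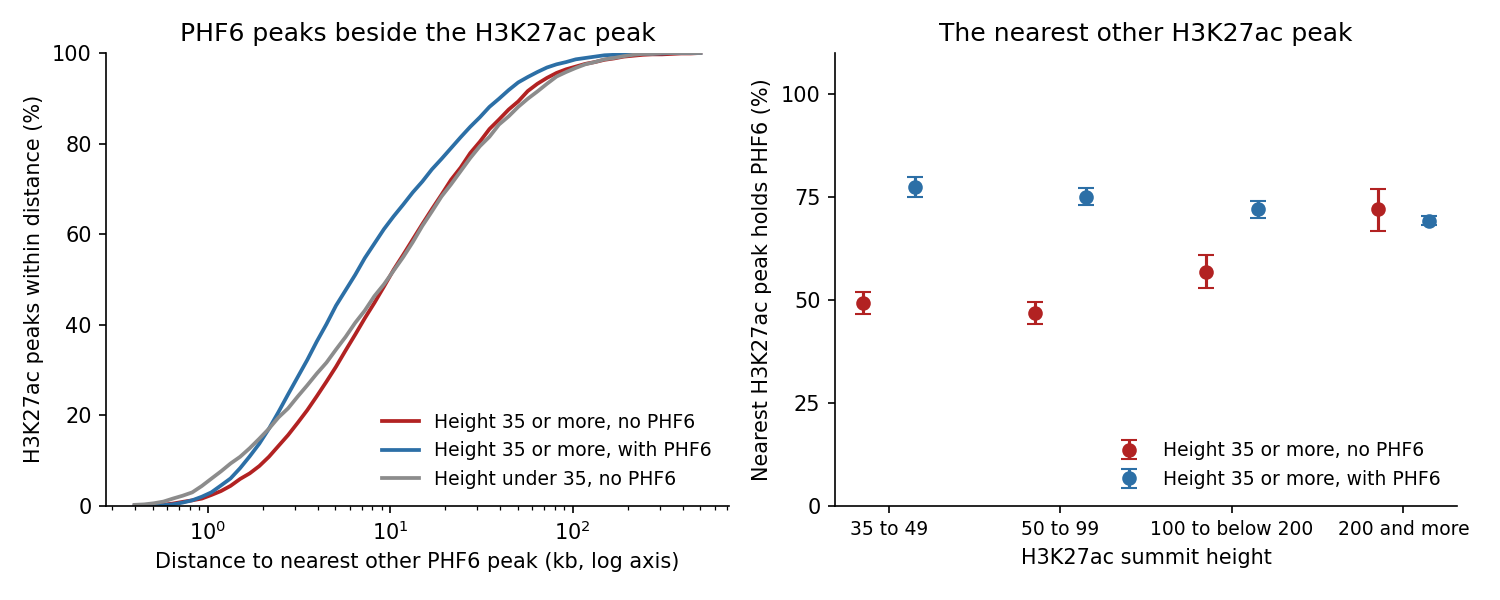
The left panel plots the cumulative share of H3K27ac peaks (y) against the distance in kb to the nearest PHF6 peak that does not overlap them (x, log axis), for strong PHF6-free (red), strong PHF6-holding (blue) and weak PHF6-free (grey) peaks. The right panel plots, by summit height and with 95% exact intervals, how often the nearest other H3K27ac peak held PHF6. The groups are far apart at heights of 35 to 49 (49.2% and 77.5%) and have overlapping intervals at 200 or more.

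H3K27ac peaks were then joined at gaps of up to 10 kb, to ask whether PHF6-free peaks belonged to larger acetylated domains. The 3812 PHF6-free peaks fell into 3253 of 18430 joined regions, and 1539 (40.4%, 38.8 to 42.0) were the only peak of theirs, against 45.0% (44.0 to 45.9) of PHF6-holding peaks. Within each height range, however, PHF6-free peaks were more often alone. The shares were 38.0% (35.4 to 40.6) and 28.8% (26.2 to 31.6) at heights of 35 to 49, and 61.1% (55.4 to 66.5) and 53.8% (52.6 to 55.0) at 200 or more. No PHF6 peak lay anywhere in 2018 of the 3253 regions (62.0%, 60.3 to 63.7), while 23.1% (22.5 to 23.8) of all joined regions had none. A PHF6-free peak alone in its region leaves that region without PHF6 by choice, and 1539 of the 2018 regions were of this kind. Most of these regions were thus fixed by the rule, and the difference is a description. Where a PHF6-free peak shared its region, another H3K27ac peak of the region held PHF6 in 1515 of 2273 cases (66.7%, 64.7 to 68.6). This share was 85.5% (84.6 to 86.3) for PHF6-holding peaks. For weak PHF6-free peaks its interval was 63.3 to 66.8%, which overlapped that of the strong ones. The gap to PHF6-holding peaks depended on height. The shares were 63.6% (60.3 to 66.9) and 91.5% (89.3 to 93.4) at heights of 35 to 49. From 100 to below 200 they were 75.4% (70.6 to 79.8) and 88.7% (86.8 to 90.4). At 200 or more they were close, 80.2% (71.9 to 86.9) and 80.7% (79.3 to 82.1).

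Where PHF6-free peaks shared a joined region, 874 of 2273 (38.5%, 36.4 to 40.5) were its tallest peak, against 52.9% (51.7 to 54.2) of PHF6-holding peaks. The order was the other way at heights of 35 to 49, with 29.3% (26.2 to 32.4) and 20.7% (17.9 to 23.7), and at 50 to 99, with 41.1% (37.9 to 44.3) and 31.5% (28.8 to 34.3). From 100 to below 200 the shares were 45.3% (40.1 to 50.6) and 42.2% (39.5 to 45.0), with intervals that overlapped. At 200 or more they were 62.8% (53.6 to 71.4) and 73.0% (71.4 to 74.5). Most regions with PHF6-free peaks had a single one: 2817 had 1, 356 had 2, 54 had 3 and 26 had 4 or more.

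Chromosomes differed in how many strong peaks lacked PHF6. The share was highest on chromosome 13, at 33.2% (29.5 to 37.0) of 633 peaks, and on chromosome 3, at 32.7% (29.2 to 36.4) of 684. Chromosome 6 had 31.7% (28.4 to 35.2) and chromosome 16 had 30.2% (26.3 to 34.4). It was lowest on chromosome 4, at 18.1% (15.8 to 20.6) of 1033, and on chromosome 8, at 18.4% (15.9 to 21.3) of 824. Among heights of 35 to 99 alone the order was much the same, with 64.7% (58.6 to 70.6) on chromosome 3, 62.4% (56.1 to 68.5) on chromosome 13, 38.2% (32.6 to 44.2) on chromosome 8 and 38.0% (32.9 to 43.2) on chromosome 4. PHF6 peaks were sparse on chromosomes 13 and 3, at 19.8 and 16.7 per Mb, and denser on 4 and 8, at 42.0 and 35.9 per Mb. The share and this density both come from the PHF6 list that chose the regions, so they are not independent. The 2 measures did not follow each other throughout: chromosome 18 had 21.7 PHF6 peaks per Mb and a share of 25.6% (21.4 to 30.2), and chromosome 11 had 52.6 per Mb and a share of 22.1% (19.9 to 24.4). In absolute density PHF6-free peaks were most frequent on chromosome 11, with 2.49 per Mb, where the PHF6 list was also densest. Chromosome 11 also had the most strong peaks of any chromosome, 1373, and its share without PHF6 was below the 24.9% of all autosomes.

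**Figure D4:**
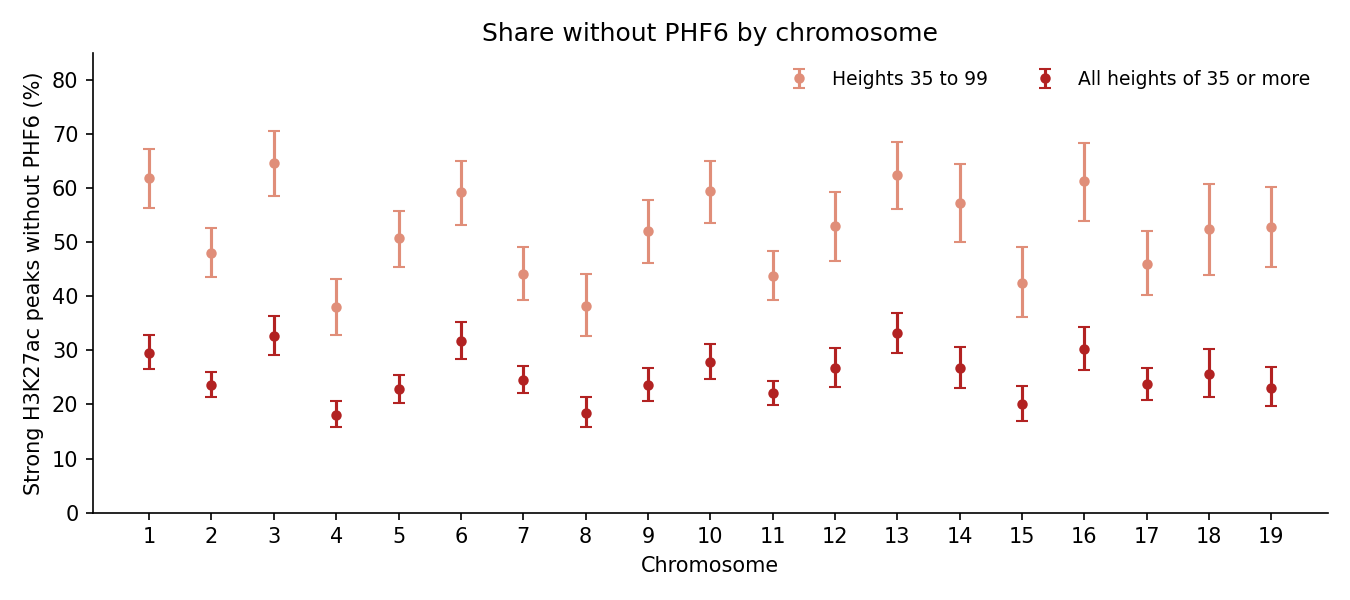
The share of strong H3K27ac peaks without PHF6 (y, percent, with 95% exact intervals) is plotted for chromosomes 1 to 19, over all heights of 35 or more (dark) and for heights of 35 to 99 (light). Chromosomes 3, 6, 13 and 16 stand above 30% over all heights, and chromosomes 4 and 8 below 20%.

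Cytogenetic bands showed a similar gradient. Dark bands, which are gene-poor in general, make up 31.2% of the autosomes and held 23.0% (21.7 to 24.4) of PHF6-free peaks, against 18.4% (17.7 to 19.2) of PHF6-holding peaks. Light bands make up 41.2% and held 45.2% (43.6 to 46.8) and 50.4% (49.5 to 51.3). These shares are over all heights and were not compared at like heights, although the groups differed in height. Weak PHF6-free peaks were placed like the strong ones, with 23.4% in dark and 46.3% in light bands. Of single bands with at least 30 strong peaks, 10qD1 had the highest share without PHF6, 23 of 33 (69.7%, 51.3 to 84.4). It was followed by 13qB3 with 35 of 62 (56.5%, 43.3 to 69.0), and the lowest was 8qC3 with 4 of 81 (4.94%, 1.36 to 12.2). Bands with few peaks reach such extremes more easily.

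Most of the tallest PHF6-free peaks were the only H3K27ac peak of their joined region, which was common among tall peaks of both groups. The 10 tallest had heights of 356 to 388, and 8 of them were alone in their joined region. At heights of 200 or more, 61.1% of PHF6-free peaks and 53.8% of PHF6-holding peaks were alone. A pair at the same height of 388 led the list: chromosome 8 at 19783697 to 19786081 (band qA1.3), and chromosome 1 at 90170639 to 90175440 (qD), a 4802 bp peak with a score of 2654.9, the only one of the 10 under the ceiling. Next came chromosome 16 at 87353495 to 87355550 (qC3.3), with a height of 380, and a second site in band 8qA1.3 at 20018781 to 20021262, with a height of 379. Both sites in 8qA1.3 lay near H3K27me3 peaks, at 4.12 and 13.5 kb from their summits. The median distance to H3K27me3 was 114.8 kb for all PHF6-free peaks and 75.9 kb for those of height 200 or more. For PHF6-holding peaks it was 89.4 and 85.3 kb. At 200 or more the quartiles were nearly equal, 29.4 and 209.5 kb without PHF6 and 29.2 and 208.4 kb with it. Chromosome 7 at 109053353 to 109055915 (qE3) had a height of 367, and chromosome 6 at 149257032 to 149259589 (qG3) had 366. Chromosome 11 gave 3101320 to 3104138 (qA1), with a height of 362, and 95170314 to 95172812 (qD), with 359. Chromosome 9 at 106723233 to 106726152 (qF1) had a height of 357. Chromosome 10 at 127667363 to 127670409 (qD3) had 356. PHF6 peaks lay between 5.43 and 63.2 kb from these 10 summits.

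The widest PHF6-free peaks were broad segments of modest height. Apart from the first, the 10 widest spanned 9119 to 13693 bp with heights of 64 to 130. Chromosome 14 at 51666392 to 51680084 (qC1) covered 13693 bp at a height of 99, and chromosome 11 at 11859154 to 11870815 (qA1) covered 11662 bp at a height of 95. Chromosome 8 at 81147382 to 81158005 (qC1) covered 10624 bp at a height of 130, and chromosome 6 at 129178483 to 129189071 (qF3) covered 10589 bp at a height of 89, with the nearest PHF6 peak 85.8 kb away. The others were on chromosome 12 at 12551050 to 12560783 (qA1.1), chromosome 16 at 38754829 to 38764234 (qB4), chromosome 15 at 66642058 to 66651428 (qD2), chromosome 8 at 94061067 to 94070259 (qC5) and chromosome 19 at 41065470 to 41074588 (qC3).

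The widest of all, 17166 bp on chromosome 11 at 3022000 to 3039165 (qA1), was unlike the rest. Its height was 346 but its score was 64.48, close to the lowest of the list, and the nearest PHF6 peak was 141.6 kb away. Tall peaks of low score were few: 5 of 961 PHF6-free peaks of height 100 or more scored under 500 (0.520%, 0.169 to 1.21), against 8 of 8721 PHF6-holding peaks (0.0917%, 0.0396 to 0.181). The other 4 were on chromosome 18 at 3003734 to 3007066 (qA1), with a height of 215 and a score of 93.42, and 3 in band 1qC5. The sites on chromosomes 11 and 18 lie at the centromeric end of the assembled sequence. In 1qC5, a pair at 85105652 to 85107058 and 85107256 to 85109305 had heights of 106 and 156 and scores of 110.29 and 203.62. The third, at 87493884 to 87498327, had a height of 155 and a score of 344.49. Multiply placed reads and the input library were not analysed here, so their part in these sites was not tested.

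Stretches between neighbouring PHF6 peaks were examined next, to see where PHF6-free peaks gathered. The 3812 peaks lay in 3084 such stretches, of which 2572 held 1 peak, 392 held 2 and 78 held 3. Another 34 stretches held 4 or 5, and 8 held 6 or more. Stretches with a PHF6-free peak were longer than PHF6-to-PHF6 stretches in general, with a median of 37.9 kb against 5.95 kb over all 76684, although long stretches have more room for peaks. Of these 8, 3 stood apart with 12 or more PHF6-free peaks, while the others held at most 7. These 3 were singled out after their values were seen.

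The stretch with the most PHF6-free peaks spanned 180.4 kb on chromosome 6 at 47545814 to 47726202 (band qB2.3). It held 18 of them among 19 H3K27ac peaks, and no H3K27me3 peak. Apart from a first peak of height 69, they had heights of 161 to 206. They formed 2 runs of 9 and 8 peaks, separated by 54.6 kb, and their summits were evenly spaced. Of the 17 distances between successive summits, 12 lay between 4.26 and 4.38 kb, with a median of 4.33 kb, and each was within 2% of a common value. The first run began with distances of 4.22, 4.34, 4.35, 4.31 and 4.33 kb. The second run was as regular apart from distances of 4.84 and 5.60 kb in its middle. The median width of the 18 was 3680.5 bp, close to the distance between summits. The first peak of the first run had a score of 3100.0, and the other peaks of the 2 runs scored 1520.86 to 2873.57, under the ceiling. Repeat annotation and multiply placed reads were not analysed here, so whether these are separate acetylated sites or copies of 1 repeated sequence was not tested.

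The other 2 large stretches were neighbours on chromosome 2 in band qH4. One spanned 1009.5 kb at 175869164 to 176878663 and held 14 H3K27ac peaks, all of height 35 or more, with heights of 66 to 111 and widths of 871 to 1261 bp. The other spanned 857.1 kb at 174879924 to 175737066 and held 12 PHF6-free peaks of 13, with heights of 58 to 108, widths of 907 to 1319 bp and 1 H3K27me3 peak. Distances between summits recurred here too. In the first, 4 of 13 distances were 34.8 to 34.9 kb and 2 were 62.5 to 62.8 kb. In the second, 3 of 11 were 34.8 kb and 4 were 62.5 to 63.4 kb. Distances of about these 2 sizes thus appeared in both stretches. Whether these peaks, too, lie on repeated sequence was not tested.

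**Figure D5:**
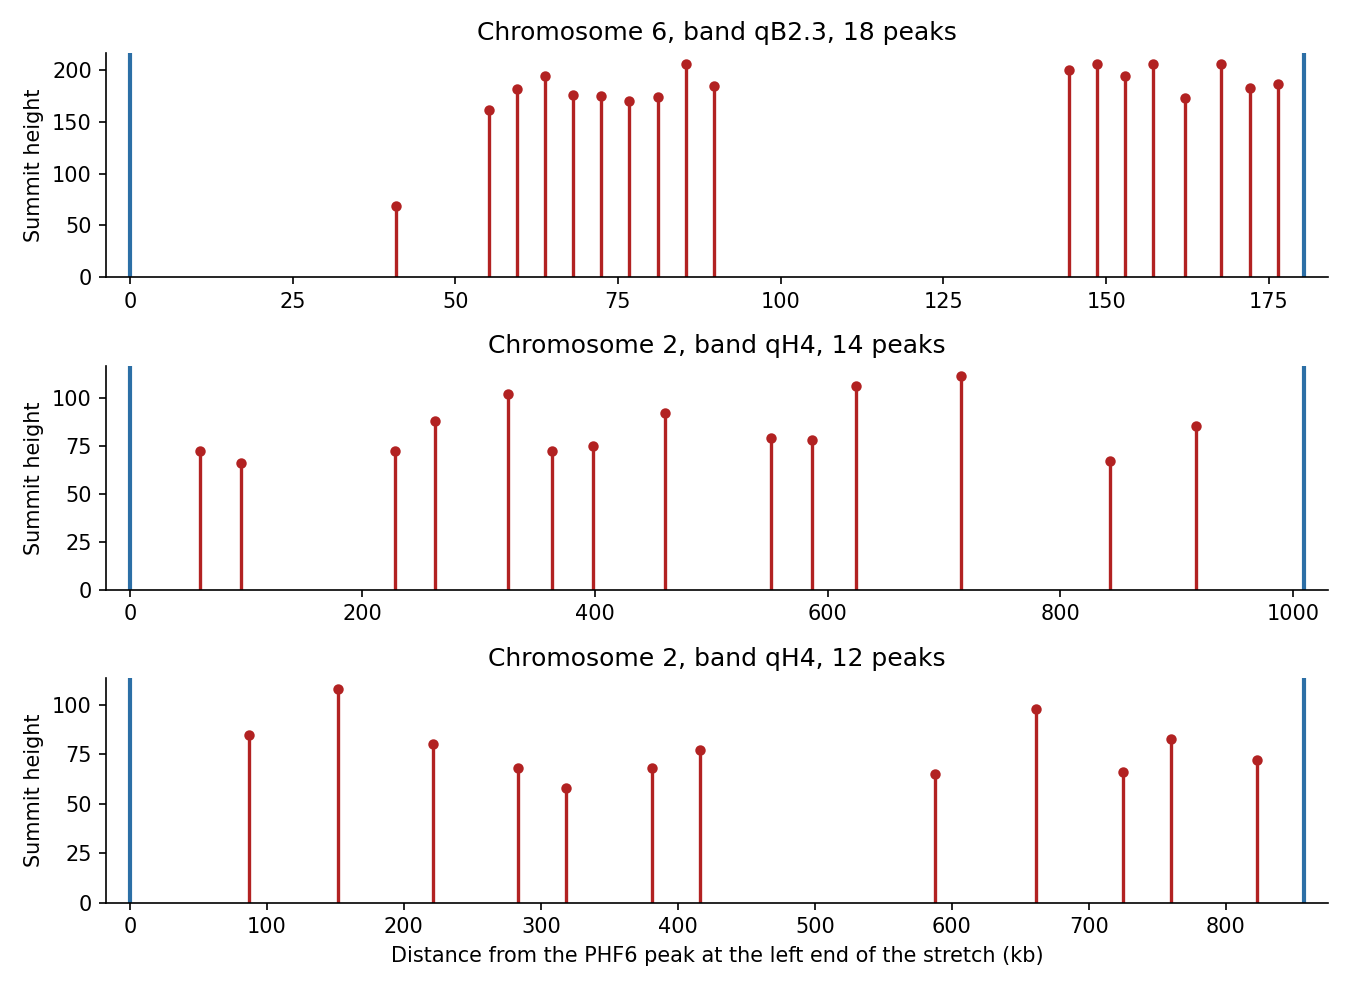
Summit height of each PHF6-free peak (red) is plotted against the distance in kb from the PHF6 peak at the left end, for the 3 stretches with the most PHF6-free peaks, and blue lines mark the flanking PHF6 peaks. The peaks on chromosome 6 form 2 evenly spaced runs of similar height, and those on chromosome 2 are sparser, with heights of 58 to 111.

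The other 5 stretches were shorter than the large pair on chromosome 2 and held fewer PHF6-free peaks. On chromosome 6 at 99160578 to 99434957 (qD3), 7 PHF6-free peaks among 18 H3K27ac peaks had heights of 43 to 150 and were 6.99 to 36.4 kb apart. On chromosome 2 at 169961972 to 170036384 (qH3), all 7 H3K27ac peaks of a 74.4 kb stretch reached the height threshold, with heights of 39 to 186 and distances of 3.69 to 17.4 kb. The 3 stretches with 6 PHF6-free peaks were on chromosome 13 at 41454743 to 41697094 (qA4), chromosome 10 at 98625738 to 98723518 (qD1) and chromosome 10 at 43404736 to 43491559 (qB2). The stretch in 10qD1 lies in the band with the highest share without PHF6, and its 6 H3K27ac peaks all reached the threshold, with heights of 39 to 93 and distances of 6.50 to 24.4 kb.

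Among joined regions, the 2 runs on chromosome 6 ranked first with 9 PHF6-free peaks each, at 47600352 to 47636971 and 47687964 to 47739692. The second of these regions ran past the end of the stretch and took in 1 PHF6-holding peak and 1 more PHF6-free peak. The next, on chromosome 2 at 143990785 to 144074938 (qG1), held 6 among 15 H3K27ac peaks and 8 PHF6 peaks. Of the 5 regions with 5 PHF6-free peaks, 3 held no PHF6 peak: chromosome 2 at 169978466 to 170011324 (qH3), chromosome 6 at 145037506 to 145074692 (qG3) and chromosome 4 at 44891841 to 44932270 (qB1). The other 2 held PHF6. The region on chromosome 17 at 35321780 to 35401646 (qB1) had 17 PHF6 peaks and 9 PHF6-holding peaks beside its 5 PHF6-free ones, and its tallest H3K27ac peak had a height of 367. The region on chromosome 11 at 5398240 to 5422776 (qA1) had a single PHF6-holding peak among 6. Of 18 regions tied at 4 PHF6-free peaks, the 2 with the tallest H3K27ac peak completed the 10, on chromosome 5 at 149739374 to 149791941 (qG3) and on chromosome 14 at 41725304 to 41781272 (qB). PHF6-free peaks were thus found both in domains empty of PHF6 and between PHF6-holding peaks of 1 domain.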

How the data were processed

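The authors' deposited peak and summit lists of the PHF6, H3K27ac and H3K27me3 ChIP libraries were used, and the input library was not analysed here. The sources used here do not state whether it served as the control for the peak lists and so entered the scores. Per the submitters' processing notes, Bowtie2, SAMtools and MACS 1.4.0 were used with build mm9. The names of the deposited lists give a threshold of 1e-6. They mark a run without local lambda for PHF6 and for H3K27ac, and carry no such mark for H3K27me3. The score deposited with each peak and the signal deposited with each summit, a pileup height, are the authors' values and served to choose, rank and describe H3K27ac peaks. Read totals are not in the lists, so depth is unknown and a missing PHF6 peak does not show absence of PHF6.

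Peaks were joined to summits by name. Overlap, distance and joining routines were tested on simulated lists and made no errors. Distances to PHF6 run from the H3K27ac summit to the nearest edge of a PHF6 peak outside the H3K27ac peak. Shares have 95% exact Clopper-Pearson intervals and medians have 95% order-statistic intervals. Positions are 1-based. In R 4.3.3, GenomeInfoDb 1.38.1 gave the chromosome lengths and circlize 0.4.16 the bands. Python 3.11.15 ran all other steps, with scipy 1.17.1 for intervals, pandas 2.3.3 and numpy 2.4.6 for joins, and matplotlib 3.10.9 for plots. Alternatives changed the height minimum, the overlap rule, the PHF6 score, the chromosomes, the joining gap and the PHF6 distance.

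Named regions are the 10 tallest and 10 widest PHF6-free peaks and the 10 joined regions with most of them, ties going to the region with the tallest H3K27ac peak. The regions, lists and comparisons were chosen with earlier results of these data known. Gene tables of another build were not used, so start sites, gene lists, motifs, base composition and repeats were not analysed here.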

Additional observations from a re-analysis of the deposited data

How the results depend on the processing

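The number of PHF6-free peaks (3812) was 3438 when a PHF6 or H3K27me3 peak within 1 kb also counted, 5395 when those peaks needed a score of at least 100, 4071 when the other summit had to lie inside, 5716 with a height minimum of 25 and 2429 with one of 50. The share of strong peaks without PHF6 (24.9%) was 22.8% with the 1 kb rule, 26.3% when the other summit had to lie inside, 34.9% with the score of 100, 29.5% with a height minimum of 25 and 19% with one of 50. The ratio of median widths (0.893) was 1.16 at heights of 35 to 49, 1.09 at 50 to 99, 0.994 from 100 to below 200 and 0.833 at 200 or more; it was 0.850 with a height minimum of 25 and 0.863 with the score of 100. The share alone in a joined region (40.4%) was 43.0% with the 1 kb rule, 55.4% with a 5 kb gap and 25.5% with a 20 kb gap. The share with PHF6 within 10 kb (50.9%) was 45.8% with the 1 kb rule, 53.3% with the summit rule, 40.5% with the score of 100, 49.2% with all chromosomes, 30.4% within 5 kb and 89.2% within 50 kb. The score of 100 leaves fewer PHF6 peaks by construction, and the cause of the width change with height was not tested. Leaving out the 44 peaks of the 3 largest stretches, an alternative chosen after seeing the data, gave 3768 peaks and kept the other 4 results inside their intervals. Alternatives that need start sites or sequence were not run. Depth is unknown, so a weak PHF6 signal may be missing from the list. No paired analysis was possible because there was a single library per antibody.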
